A study of Rattus norvegicus with 16 samples.

Results

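The 6 hairpins rno-mir-99a, rno-mir-99b, rno-mir-100, rno-mir-125a, rno-mir-125b-1 and rno-mir-125b-2 were profiled across rat tissues. They were taken by name from the 392 pre-miRNA hairpins of the data, and the perfectly matching reads at every position were summed per hairpin arm and library. Small RNA from 6 organs, namely heart, whole brain, kidney, testis, spleen and liver, was sequenced in adult males of the inbred rat strains BN-Lx (brown Norway with polydactyly-luxate syndrome) and SHR (spontaneously hypertensive). No treatment is given for either strain. In the six-tissue set, a single rat of each strain gave all its tissues, so the 12 libraries hold 1 sample per tissue and strain and a strain difference cannot be told apart from a difference between those rats. A further 4 livers, 2 of each strain, came from other rats, which gave 3 livers per strain and 16 libraries in all. All tissues were taken whole and hold many cell types.

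A mature miRNA is loaded into an Argonaute protein and lowers the output of transcripts that pair with its first bases, so miRNAs with the same first bases are grouped into families. The mir-99 family (mir-99a, mir-99b and mir-100) is known for repressing components of the mTOR and insulin-like growth factor pathways. The mir-125 family (mir-125a and mir-125b) is the vertebrate counterpart of lin-4, the first miRNA described, and is known for roles in neural differentiation, blood cell development and control of p53. In mammals, each mir-99 family hairpin lies near a let-7 hairpin and a mir-125 hairpin, and the arrangement is old enough to be shared with flies, where mir-100, let-7 and mir-125 come from a common transcript.

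The same arrangement is annotated in the rat genome (RefSeq, GRCr8, all on the + strand). Mir99b lies at chr1:67350064-67350133, followed by Mirlet7e at chr1:67350229-67350321 and Mir125a at chr1:67350675-67350759, so that 541 bp separate the outer hairpins. On chromosome 8, Mir100 lies at chr8:50798295-50798374, Mirlet7a-2 at chr8:50805203-50805298 and Mir125b1 at chr8:50850036-50850122, with 51661 bp between the outer hairpins. On chromosome 11, Mir99a lies at chr11:29687392-29687472, Mirlet7c1 at chr11:29688112-29688205 and the mature mir-125b of Mir125b2 at chr11:29732588-29732609, with 45115 bp from the mir-99a hairpin to that arm. The cluster on chromosome 1 is compact, whereas the others are spread out.

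The 5' arms fall into groups that share a seed, the bases that lead the pairing with a transcript, and the sequences are given to show which members read the same targets. RefSeq holds 10 of the 11 mature sequences, the missing entry being mir-99a-5p. Bases 2 to 8, the seed, are in capitals.
mir-99b-5p: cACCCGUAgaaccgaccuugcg
mir-100-5p: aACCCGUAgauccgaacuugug
mir-125a-5p: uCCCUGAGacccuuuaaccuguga
mir-125b-5p: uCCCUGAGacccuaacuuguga
The mir-99b and mir-100 5' arms share the seed ACCCGUA and differ at 4 positions, counted from 1 at the 5' end of mir-99b-5p (C1A, A11U, C16A and C21U). Seed CCCUGAG is common to mir-125a and mir-125b, whose first 13 bases are the same. The mature mir-125b 5' arm is the same at both loci, so its reads were summed over rno-mir-125b-1 and rno-mir-125b-2. The 6 hairpins thus gave 11 arms, 5 of them 5' arms and 6 of them 3' arms.

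The 3' arms differ more between hairpins, and the ones of the mir-125b loci tell the loci apart.
mir-99a-3p: cAAGCUCGuuucuaugggucug
mir-99b-3p: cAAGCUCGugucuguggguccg
mir-100-3p: cAAGCUUGugucuauaggu
mir-125a-3p: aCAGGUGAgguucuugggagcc
mir-125b-1-3p: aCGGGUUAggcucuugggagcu
mir-125b-2-3p: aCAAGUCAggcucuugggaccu

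The depth was 26880 and 29131 reads in testis, 403453 to 1064894 reads in the remaining tissues of the six-tissue set and 1167607 to 3229461 reads in the further livers. Where values come in pairs, the BN-Lx rat is given first. Levels are given as reads divided by the outlier-corrected mean (ocm), the mean reads per arm of the library after its 3 largest arms were removed. Differences in capture between sequences are not removed by this scale. Tissue differences are log2 folds of edgeR's quasi-likelihood test on the scale of trimmed means of M-values (TMM), with Benjamini-Hochberg adjustment over all arms tested and a call at an adjusted p under 0.05. Of 6 lists of miRNAs known to mark a tissue, 5 were highest in their own tissue in both strains, the exception being mir-192 and mir-194, listed for kidney, which were highest in liver. Relative to TMM, the ocm moved the median arm by 0.53 in brain, -0.26 in liver, -0.35 in spleen, -0.52 in heart, 0.83 in testis and -0.22 in kidney (log2, tissue against the mean of the others). Over all 456 arms tested, heart had 58 higher and 30 lower by TMM but 44 and 61 by the ocm, spleen 84 and 44 but 58 and 57, testis 50 and 60 but 86 and 26, kidney 69 and 31 but 51 and 38, and liver 61 and 52 but 46 and 67. Brain had 176 higher and 105 lower by TMM and 213 and 70 by total reads.

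Together the 11 arms made up a large share of the miRNA reads outside liver and spleen. In BN-Lx they took 11.8% of the reads of heart, 11.5% of brain, 10.2% of testis, 6.61% of kidney, 3.02% of spleen and 2.45% of liver. The shares in SHR were 11.5% in brain, 9.82% in testis, 9.74% in heart, 8.82% in kidney, 3.04% in liver and 2.88% in spleen. The widest exact 95% interval, which covers counting error only, was 9.83 to 10.6% for BN-Lx testis. Spleen and liver were the lowest tissues in both rats, with no overlap with the other 4 tissues. Nearly all these reads were 5' arms, of which mir-125b-5p ranked between 2 and 26 of the 686 detected arms in a library, mir-125a-5p between 3 and 28, mir-99a-5p between 7 and 28, mir-100-5p between 25 and 68 and mir-99b-5p between 83 and 162.

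Among the mir-125 arms, mir-125b-5p had the most reads of any member in brain. Its ocm-normalised level in brain was 40.02 in BN-Lx and 56.9 in SHR. In heart the level was 45.3 in BN-Lx and 38.5 in SHR, and in testis 31.4 in both. The values of the 2 rats were 15.1 and 18.4 in kidney, 10.4 and 14.04 in liver, and 10.1 and 10.3 in spleen, the BN-Lx rat first. On this scale brain, heart and testis were above kidney, liver and spleen in both rats, without overlap, whereas on the TMM scale testis and kidney were at 0.01 ± 0.29 (log2, adjusted p = 1.0).

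The other mir-125 arm, mir-125a-5p, had a different pattern, with kidney in the upper group. Its level was 40.1 and 32.1 in heart, 30.6 and 36.7 in kidney, 36.9 and 23.1 in brain and 28.3 and 21.5 in testis. Liver had 9.02 and 11.4 and spleen 10.3 and 9.39. Brain differed most between the rats, and liver and spleen lay below every other library.

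In the mir-99 group, mir-99a-5p had the most reads in every library. It was highest in heart, at 26.7 in BN-Lx and 20.6 in SHR, and in testis, at 23.6 and 22.1. Brain had 15.4 and 18.7, kidney 10.99 and 14.2, liver 11.7 and 13.2, and spleen 7.72 and 8.39. Spleen was the lowest tissue in both rats, and liver and kidney overlapped. The arm mir-100-5p was lower but spanned a wider range, with 7.97 and 8.49 in testis, 5.70 and 4.87 in heart, 4.84 and 4.18 in brain, 1.67 and 2.67 in kidney, 1.34 and 1.64 in liver and 1.33 and 1.32 in spleen. Testis was highest in both rats without overlap with any other tissue, although on the TMM scale heart came first. The arm mir-99b-5p was at 1.07 or lower in the 12 six-tissue libraries, from 0.117 in BN-Lx liver (41 reads) to 1.07 in SHR testis (36 reads). Its level in brain was 0.717 in BN-Lx and 0.332 in SHR.

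**Figure D1:**
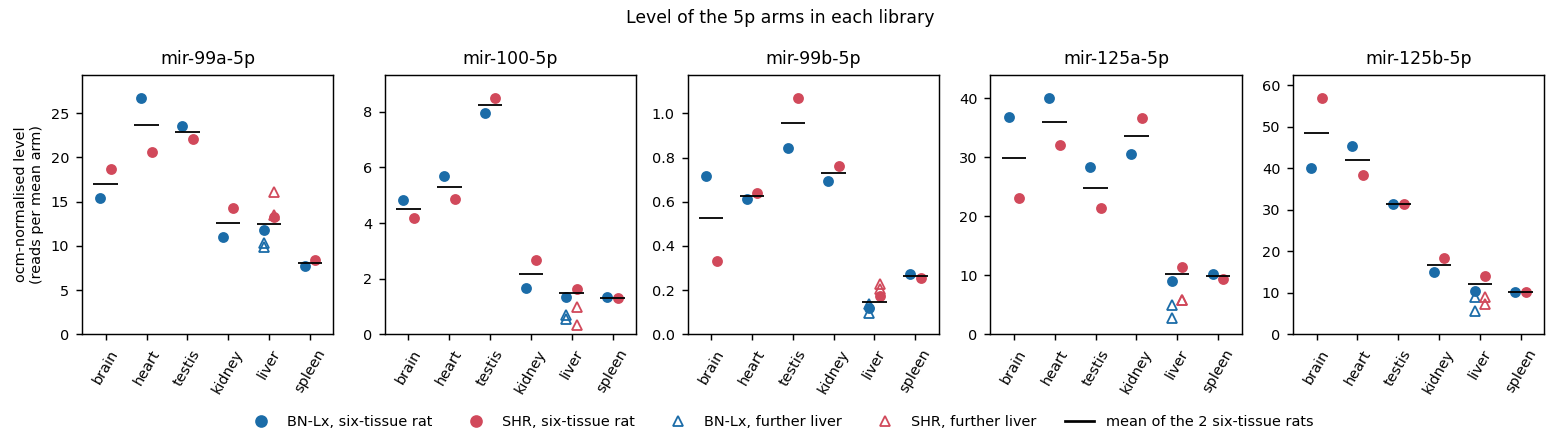
Each panel plots the ocm-normalised level (reads divided by the mean reads per arm) of a 5' arm by tissue, with a point for each library, filled for the six-tissue rats and open for the further livers, and a bar for the mean of the 2 six-tissue rats. Liver and spleen are at the bottom of the mir-125a-5p, mir-125b-5p, mir-100-5p and mir-99b-5p panels, and kidney is high for mir-125a-5p (30.6 and 36.7) but not for mir-125b-5p (15.1 and 18.4).

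In heart, 4 of the 5 5' arms were higher than the mean of the other 5 tissues, and none was lower. No 3' arm was called, so 4 of the 10 tested arms passed. Over all 456 arms, 12.7% were called higher in heart and 6.58% lower. The log2 fold was 1.61 ± 0.20 (SE) for mir-125b-5p (adjusted p = 0.000102), 1.47 ± 0.29 for mir-100-5p (adjusted p = 0.00284), 1.44 ± 0.23 for mir-125a-5p (adjusted p = 0.00056) and 1.32 ± 0.21 for mir-99a-5p (adjusted p = 0.00063), by edgeR. For mir-99b-5p it was 1.07 ± 0.40 (adjusted p = 0.0839). The 4 calls stood under each other scale and under DESeq2, where the log2 folds fell to between 0.76 and 1.38. Without the BN-Lx heart library, mir-99a-5p (1.04, adjusted p = 0.0685) and mir-100-5p (1.28, adjusted p = 0.109) were not called. Summed levels of the smooth muscle miRNAs mir-143 and mir-145, both detected, were also highest in heart, at 179 to 196 against 17.4 to 128 in the other tissues, and the endothelial mir-126 was at 18.4 to 23.5 against 1.69 to 16.99; their part in the result was not tested. In whole tissues, fewer cells of a type and less RNA per cell cannot be told apart.

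In brain, the arms of mir-125b were the members called. The log2 fold of mir-125b-5p was 0.76 ± 0.21 (adjusted p = 0.00814) and that of mir-125b-2-3p was 1.26 ± 0.44 (adjusted p = 0.0233), 2 of the 10 tested arms, and none was lower. Over all arms, 38.6% were called higher in brain and 23.0% lower, so the share of members called was below the background. The call of mir-125b-5p was lost without the SHR brain library (0.62, adjusted p = 0.109), and that of mir-125b-2-3p without either brain library (1.51, adjusted p = 0.0672, without BN-Lx and 1.03, adjusted p = 0.216, without SHR). On the ocm scale mir-125a-5p passed as well (0.58, adjusted p = 0.0407), while on the TMM scale it was at 0.05 ± 0.25.

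In kidney, mir-125a-5p was the member called, higher by 1.04 ± 0.24 (adjusted p = 0.00809), whereas mir-125b-5p was at -0.30 ± 0.23. Of all arms, 15.1% were called higher in kidney and 6.8% lower. Without the SHR kidney library, the fold of mir-125a-5p was 0.79 (adjusted p = 0.11), and with the 4 further livers added it was 1.08 (adjusted p = 0.0683). The arm mir-99b-5p, which lies in the same cluster, was at 1.03 ± 0.40 and did not pass (adjusted p = 0.0857).

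Liver and spleen were the low tissues. In liver, mir-99b-5p fell by 1.69 ± 0.50 (adjusted p = 0.0295), mir-125a-5p fell by 0.98 ± 0.28 (adjusted p = 0.0223) and mir-125b-5p fell by 0.80 ± 0.24 (adjusted p = 0.0304), 3 of the 10 tested arms, against 11.4% of all arms lower and 13.4% higher. For mir-100-5p the log2 fold was -0.99 ± 0.35 (adjusted p = 0.0571), and it passed by DESeq2 (adjusted p = 0.00134) and on the 3 other scales. The arm mir-99a-5p was at -0.06 ± 0.24 in liver on the TMM scale. All 3 calls were lost without the BN-Lx liver library (-1.29, -0.63 and -0.57, with adjusted p = 0.294, 0.349 and 0.367), and without the SHR liver library that of mir-99b-5p (-2.20, adjusted p = 0.0865) and mir-125b-5p (-1.07, adjusted p = 0.0754) were lost too. The library SHR testis had the same effect on mir-125b-5p (-0.79, adjusted p = 0.0509).

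In spleen, 3 arms were lower. They were mir-100-5p, which fell by 1.07 ± 0.35 (adjusted p = 0.0395), mir-125b-5p, which fell by 0.98 ± 0.25 (adjusted p = 0.0102), and mir-125a-5p, which fell by 0.95 ± 0.27 (adjusted p = 0.0217). The background was 9.65% of all arms lower and 18.4% higher. None of the 3 calls stood without the SHR spleen library (-0.78, -0.67 and -0.73, with adjusted p = 0.351, 0.19 and 0.259) or with the further livers added (adjusted p = 0.181, 0.0813 and 0.176), while mir-100-5p was lost on leaving out 8 of the 12 libraries in turn and mir-125a-5p also without the BN-Lx spleen library (-1.09, adjusted p = 0.111). The white blood cell miRNAs mir-142 and mir-223 summed to 101 to 140 in spleen against 0.851 to 12.01 elsewhere, and mir-451 and mir-144, of red blood cells, to 60.4 to 89.7 against 1.46 to 25.8; their part in the result was not tested.

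Testis gave no call among the members by edgeR (smallest adjusted p = 0.0658), against 11.0% of all arms higher and 13.2% lower. At an unadjusted p under 0.05 there were 3 of 10 member arms and 152 of all 456 arms (33.3%). For mir-100-5p the log2 fold was 0.85 ± 0.31 by TMM, and it was called by DESeq2 (1.23, adjusted p = 7.17e-05) and on the ocm scale (1.71, adjusted p = 0.000534). The direction of mir-99a-5p in testis turned with the scale, from -0.14 by TMM to 0.72 by the ocm (adjusted p = 0.0273), and that of mir-125b-5p from -0.29 by TMM to 0.76 by total reads (adjusted p = 0.0106). Testis was the shallowest tissue and was amplified with more PCR cycles than most libraries, and the part of either in the result was not tested.

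**Figure D2:**
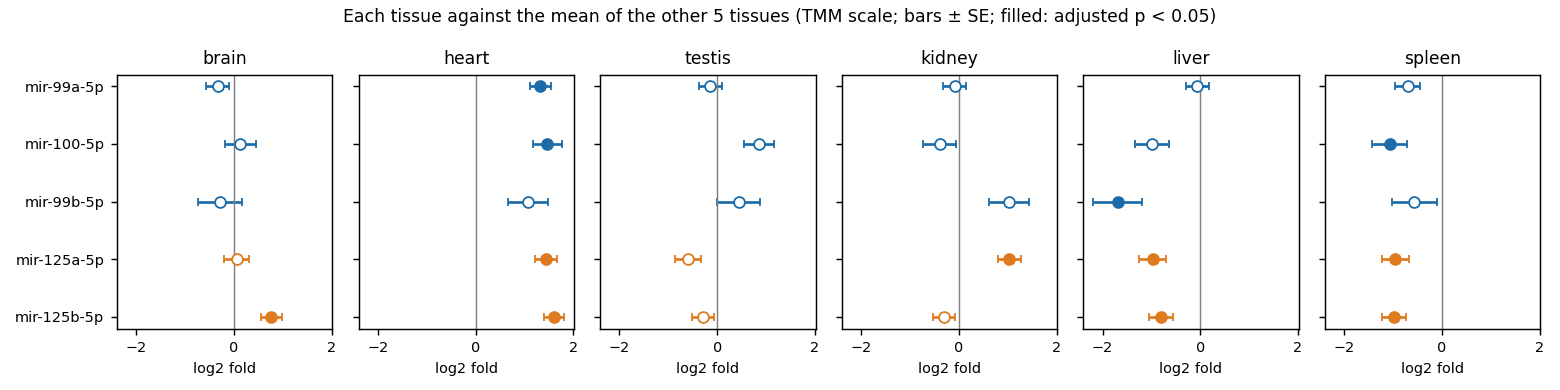
Points are log2 folds of each tissue against the mean of the other 5 tissues (edgeR, TMM scale) for the 5' arms, with bars of ± SE, filled where the adjusted p was under 0.05, in blue for the mir-99 group and orange for the mir-125 group. In heart 4 filled points lie above 0, whereas in liver and spleen every filled point lies below it.

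Over the 15 pairs of tissues, 39 of 150 tests of member arms were called, or 26.0%, against 33.3% over all arms. The 5' arms gave 32 calls in 75 tests, 10 of them for mir-125a-5p, 8 for mir-125b-5p, 6 for mir-100-5p, 5 for mir-99a-5p and 3 for mir-99b-5p. In the order of levels on the TMM scale, mir-125b-5p ran from heart through brain, testis, kidney and liver to spleen, and of these neighbours only brain and testis differed beyond their spread (0.87 ± 0.29, adjusted p = 0.0303). That difference was lost on 2 of the 3 other scales. Heart over brain did not pass (0.71 ± 0.29, adjusted p = 0.0564), and at ocm-normalised levels brain was below heart in BN-Lx and above it in SHR. The order for mir-125a-5p was heart, kidney, brain, testis, spleen and liver, with kidney above brain (0.82 ± 0.33, adjusted p = 0.049) as the neighbours that differed on the TMM scale, a call lost on each of the 3 other scales. For mir-99a-5p, heart was above liver (1.15 ± 0.31, adjusted p = 0.0207), the next tissue, and no later neighbours passed. No neighbours passed for mir-100-5p and mir-99b-5p. The contrast of liver with heart had the most member calls of the 15 pairs. In it 6 of the 10 tested arms were lower in liver, 1 of them a 3' arm. At an unadjusted p under 0.05 by edgeR there were 7 of 10 member arms and 121 of all 456 arms (26.5%), in either direction. The 5 5' arms were lower in liver by 2.30 ± 0.59 for mir-99b-5p (adjusted p = 0.0179), 2.05 ± 0.44 for mir-100-5p (adjusted p = 0.0062), 2.01 ± 0.34 for mir-125a-5p (adjusted p = 0.00127), 2.01 ± 0.30 for mir-125b-5p (adjusted p = 0.0005) and 1.15 ± 0.31 for mir-99a-5p (adjusted p = 0.0207) on the log2 scale, and each of these was called on every other scale. The calls of heart over testis for mir-99a-5p (1.21 ± 0.31), mir-125a-5p (1.70 ± 0.34) and mir-125b-5p (1.58 ± 0.30) stood on 0, 1 and 1 of the 3 other scales, where the lowest values were -0.12, 0.36 and 0.25.

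A stricter rule asked for a level at least 5-fold above or below that of every other tissue in both strains. None of the 11 arms met it, while 256 of 686 detected arms (37.3%) did. The highest tissue of a 5' arm exceeded the second by 1.07 to 1.74 times, and the lowest tissue by 2.64 (mir-99a-5p, SHR) to 7.20 times (mir-99b-5p, BN-Lx). None met it at 3-fold either. With a single strain, 2 members passed in BN-Lx (mir-125b-1-3p and mir-100-3p) and 2 in SHR (mir-99a-3p and mir-99b-3p), against 56.3% and 55.7% of all arms. These are 3' arms of few reads, and a tissue at 0 reads counts as low. For mir-125b-1-3p the BN-Lx brain level of 0.00401 (5 reads) lies under the limit that 0 reads allow in BN-Lx testis (0.101), heart (0.00749) and liver (0.00858). For mir-99b-3p the limit in SHR testis, with 0 reads, is 0.0891, above its level in every other SHR tissue, so neither case shows a tissue difference.

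Ratios between members within a library do not depend on the scale. They were compared over the 6 tissues by permuting the tissues of one rat against those of the other (exact, one-sided, 720 orders, smallest possible p = 0.00139), among 20 such tests of ratios and shares. The partners at the wider clusters differed in balance. For mir-99a-5p over mir-125b-5p, from the same cluster, there were 1.12 and 0.942 reads in liver but 0.386 and 0.328 in brain, with heart at 0.59 and 0.535, kidney at 0.727 and 0.774, testis at 0.75 and 0.703 and spleen at 0.761 and 0.818. Brain was lowest and liver highest in both rats, and the tissues differed by the exact permutation test (p = 0.00417, adjusted p = 0.0417). A part of mir-125b-5p comes from the mir-100 cluster, which this ratio cannot separate.

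The ratio of mir-100-5p to mir-99a-5p, which belong to the same group, ranged from 0.338 and 0.384 in testis to 0.114 and 0.124 in liver. Brain had 0.314 and 0.224, heart 0.213 and 0.236, kidney 0.152 and 0.187 and spleen 0.172 and 0.157. The tissues differed by the exact permutation test (p = 0.00833, adjusted p = 0.0417). The mir-99 group over the mir-125 group was lowest in brain, at 0.273 and 0.29, and highest in liver, at 0.678 and 0.591, with p = 0.00278 and adjusted p = 0.0417 by the exact permutation test.

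The compact cluster gave far fewer mir-99b-5p than mir-125a-5p reads in every library, from 0.013 in BN-Lx liver to 0.0498 in SHR testis, and that ratio did not pass (exact permutation p = 0.0208, adjusted p = 0.0694). For mir-125a-5p over mir-125b-5p the values were 2.02 and 2.00 in kidney, 0.922 and 0.406 in brain and between 0.683 and 1.01 in the other tissues. Of the 6 tissues, kidney alone had more mir-125a-5p than mir-125b-5p reads in both rats, but the brains differed and the exact permutation test did not pass (p = 0.0847, adjusted p = 0.188). Without testis, which leaves 120 orders and a smallest possible p of 0.00833, none of the 20 tests passed, but adjusted over 20 tests a p at that limit passes only if several reach it. In the further livers mir-100-5p over mir-99a-5p was 0.0261 to 0.071, below both first livers, and mir-99a-5p over mir-125b-5p was 1.15 to 1.82, above both. There mir-99b-5p over mir-125a-5p was 0.0269 to 0.0398, above the 0.013 and 0.0154 of the first livers, so its low value in liver was not seen again. With the mean of the 3 livers of a strain in place of its first liver, 8 of the 20 tests passed. The further livers differed from the first ones in the same direction in both strains for these ratios. Such a shift can by itself change the agreement that is tested, so this count cannot be read as further support.

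**Figure D3:**
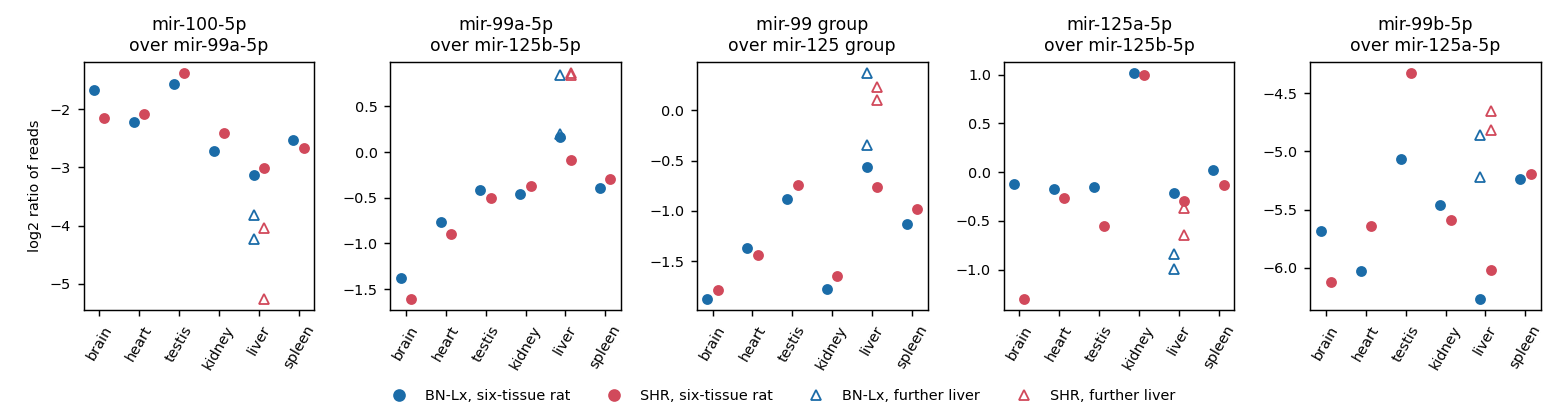
Each panel plots the log2 ratio of the reads of 2 members or groups by tissue, with filled points for the six-tissue rats and open triangles for the further livers. Brain is lowest and liver highest for mir-99a-5p over mir-125b-5p, and kidney stands at 1.02 and 0.997 (log2) for mir-125a-5p over mir-125b-5p.

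The 3' arms, often called the star strand, were rare at all 6 hairpins. Summed over the 12 libraries, the 3' share of a hairpin's reads was 4.28% for mir-99b (149 of 3482 reads, exact 95% interval 3.63 to 5.01%), 1.12% for mir-100, 0.338% for mir-125b, 0.237% for mir-99a and 0.135% for mir-125a. None of the 5 shares passed between tissues (exact permutation, adjusted p = 0.111 to 0.76), and mir-100, with 1.67% and 1.72% in testis and 0.213% and 0.645% in liver, had the smallest p. In the 4 further livers the mir-100 share was 1.83%, 4.68%, 4.00% and 1.55%, so the low share of the first livers was not seen there. For mir-99b the share in brain was 1.22% in BN-Lx (11 of 904 reads, interval 0.609 to 2.17%) and 17.2% in SHR (66 of 384 reads, 13.5 to 21.3%), and in heart 6.46% in BN-Lx and 0.489% in SHR. The intervals of the rats did not overlap in these tissues, with 1 library each.

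As single arms, the 3' arms gave few calls. Of 6, mir-125b-1-3p had 8 reads in the 12 libraries and was not tested. The arm mir-125b-2-3p, with 645 reads, was at 0.156 and 0.218 in brain, 0.092 and 0.0803 in heart, 0.0395 and 0.0664 in kidney, 0.0429 and 0.0458 in spleen, 0.101 and 0.0297 in testis and 0.0372 and 0.0293 in liver, and was the 3' arm called against the mean of the other tissues, in brain as given above. In liver, mir-100-3p was at 0.00286 and 0.0107 (1 and 4 reads), against 0.135 and 0.148 in testis, 0.0574 and 0.0331 in heart and 0.0771 and 0.0585 in brain. It was called lower in liver than in testis (adjusted p = 0.026), brain (adjusted p = 0.0268) and heart (adjusted p = 0.0478, lost on 2 of the 3 other scales), and the few reads in liver leave the size of the fold uncertain. The 4 further livers, which that fit does not hold, were at 0.0131, 0.0271, 0.0147 and 0.0154 (11, 20, 29 and 31 reads), above both first livers.

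The 5' ends of the 5' arms were precise and the 3' ends were not. The most frequent start held between 98.3% and 98.7% of the reads of each 5' arm, summed over the 12 libraries. The start of mir-99a-5p differed slightly between tissues, from 97.1% and 97.7% in testis to 98.8% and 98.9% in brain (exact permutation p = 0.00694, adjusted p = 0.0417), and no other start share passed. The most frequent end held 79.9% of the reads of mir-125a-5p, 72.4% of mir-100-5p, 69.2% of mir-125b-5p, 60.8% of mir-99b-5p and 54.2% of mir-99a-5p. Most of the rest of mir-99a-5p, 41.6%, was 1 nt longer. The most frequent read of mir-125b-5p had 22 nt, and 17.5% of its reads ended 2 nt and 8.87% ended 1 nt earlier.

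The most frequent reads of the arms with a hairpin in RefSeq are given with the next 3 bases of the hairpin in capitals, since the longer reads end there.
mir-99b-5p: cacccguagaaccgaccuugcGGG
mir-100-5p: aacccguagauccgaacuuguGCU
mir-125a-5p: ucccugagacccuuuaaccuguGAG
mir-125b-5p (Mir125b1): ucccugagacccuaacuugugaUGU
The share of mir-100-5p reads that were 1 nt longer than the main form was 30.6% and 17.6% in brain, 24.98% and 21.1% in heart and 21.5% and 14.02% in kidney. It was 6.40% and 4.55% in liver, 3.53% and 6.31% in spleen and 4.24% and 5.59% in testis, without overlap with the first 3 tissues. The main end share of mir-100-5p, on which the test was made, was 88.5% and 89.6% in liver and 67.6% and 69.7% in heart and did not pass (exact permutation p = 0.0125, adjusted p = 0.05, not under the threshold). The longer form of mir-99a-5p was 55.3% and 44.4% in heart and 21.8% and 25.2% in testis, and the main end share did not pass either (exact permutation adjusted p = 0.111).

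**Figure D4:**
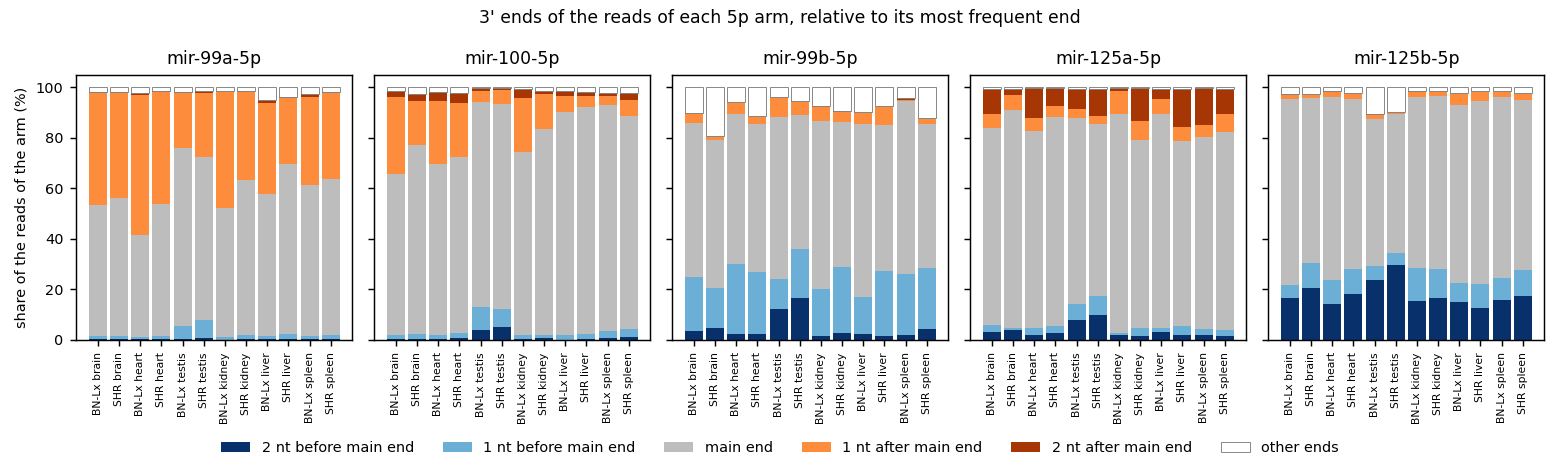
Stacked bars give, for each 5' arm and each of the 12 six-tissue libraries, the share of its reads (%) that end at the most frequent 3' end or 1 or 2 nt before or after it. The orange share, reads 1 nt longer, is large for mir-99a-5p in every library (21.8 to 55.3%) and for mir-100-5p is 14.02 to 30.6% in brain, heart and kidney and 3.53 to 6.40% in the other tissues.

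A small part of the mir-125b reads matched only 1 of the hairpins. All 207 combinations of start, end and library that lie within the 22 nt shared by the loci had equal reads at rno-mir-125b-1 and rno-mir-125b-2 (to 1e-06 reads), as even division gives. Reads that run past them match 1 locus only. They made up 2.08% of the mir-125b 5' arm reads in the 12 libraries, of which 2380 lay on rno-mir-125b-1 and 1626 on rno-mir-125b-2. Most ended 1 nt past the shared bases (1.98% of the arm's reads, against 0.105% at 2 nt), so the match rests mainly on 1 base. At Mir125b1 that base is U, and whether it was copied from the hairpin was not tested. The share that matched rno-mir-125b-1 was 59.4% (exact 95% interval 57.9 to 60.9%). It was 55.6% and 51.2% in brain, 60.2% and 66.5% in heart, 62.2% and 52.1% in kidney, 65.9% and 60.7% in spleen and 78.4% and 75.4% in liver, and the testis libraries held 18 and 9 such reads. Liver was highest of the 5 deeper tissues in both rats, and in the further livers the share was 79.3 to 83.5%. Liver also had the largest part of its mir-125b 5' arm reads run past the shared bases, 4.82% and 3.70%. That part was 4.72 to 6.35% in the further livers and 0.85 to 2.74% in the other tissues. The share describes these longer reads, and how the shorter ones split between the loci cannot be read. The 3' arms went the other way, with 8 reads from rno-mir-125b-1 and 645 from rno-mir-125b-2 in the 12 libraries, a share from the former of 1.23% (interval 0.53 to 2.4%), and 0 and 100 in the further livers, where the interval reaches 3.62%. These shares were not tested between tissues.

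**Figure D5:**
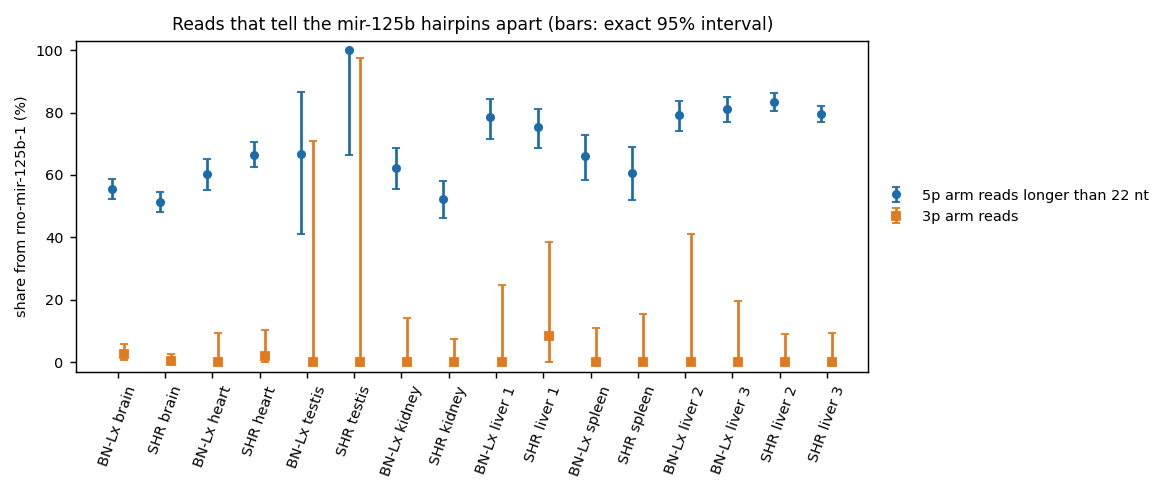
For each of the 16 libraries, the share (%) of locus-specific mir-125b reads that came from rno-mir-125b-1 is plotted for 5' arm reads longer than 22 nt (circles) and 3' arm reads (squares), with exact 95% intervals. The circles lie between 51.2 and 100% and the squares at 8.33% or lower.

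Of the 6 arms of the let-7 hairpins between the members, 5 were tested, and 1 of them was called in brain and 1 in kidney, where 38.6% and 15.1% of all arms were called higher. Reads of the let-7 5' arms are uncertain because reads that fit several let-7 hairpins were divided evenly. In heart none was called. In brain let-7e-5p was higher by 1.34 ± 0.44 (adjusted p = 0.017), at levels of 2.68 and 2.94, while mir-99b-5p and mir-125a-5p, which flank it, were at -0.29 ± 0.45 and 0.05 ± 0.25. In kidney let-7c-1-5p was higher by 1.35 ± 0.37 (adjusted p = 0.0197), at 1.42 and 2.83, while mir-99a-5p was at -0.08 ± 0.24. None was called in liver, spleen or testis, and let-7a-2-5p in no tissue. Pearson's r of log2 CPM (TMM-scaled reads per library size) over the 12 libraries, which share rats, depth and composition, was -0.34 to 0.48 between a member 5' arm and a let-7 5' arm of the 3 clusters, and 0.48 to 0.82 among the member 5' arms, with 0.82 for mir-99b-5p with mir-125a-5p (same cluster), 0.79 for mir-99a-5p with mir-125b-5p and 0.82 for mir-100-5p with mir-125b-5p.

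Outside the clusters, the most similar of the 456 arms were named by the same r over 12 libraries. For mir-99a-5p these were mir-133b-3p (0.91), mir-133a-3p (0.90) and mir-1-3p (0.90), miRNAs of heart and skeletal muscle. For mir-125a-5p they were mir-499-3p (0.83), mir-499-5p (0.82), of a heart myosin gene, and mir-30a-5p (0.75). The arms nearest to mir-125b-5p were mir-499-3p (0.74), hsa-mir-490-5p (0.74) and mir-1-5p (0.73), and those nearest to mir-100-5p were mir-296-5p (0.76), mir-133b-3p (0.74) and mir-450a-3p (0.70). For mir-99b-5p they were mir-30e-5p (0.67) and both mir-181b 5' arms (0.67). Of these arms, mir-1-3p was at 16.01 and 26.4 in heart and at 0.0772 or lower in every other tissue. Several others were near the floor, where r says little about a shared profile. Outside heart, mir-1-5p had 0 or 1 reads, mir-499-3p 0 to 12 and mir-1-3p 0 to 27. There mir-133a-3p had 3 to 44 reads and mir-133b-3p 3.5 to 50, so r for these arms rests mainly on the heart libraries. Outside brain and heart, hsa-mir-490-5p had 0 to 2 reads, and mir-450a-3p had 0 to 7 in every library.

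No strain difference of a member passed. Over the 6 tissues, SHR over BN-Lx was 0.15 ± 0.17 for mir-125b-5p, -0.17 ± 0.19 for mir-125a-5p, 0.07 ± 0.18 for mir-99a-5p, 0.09 ± 0.24 for mir-100-5p and -0.04 ± 0.34 for mir-99b-5p on the log2 scale. None of the 10 tested arms passed by edgeR or DESeq2 (edgeR smallest adjusted p = 0.997, none at an unadjusted p under 0.05), and 0.0% of the 456 arms did by edgeR, with 7 at an unadjusted p under 0.05. At ocm-normalised levels, mir-125b-5p was higher in SHR in 5 of 6 tissues and mir-125a-5p in 2 of 6.

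In liver, with 3 rats per strain, no member was called either. The level of mir-99a-5p in the BN-Lx livers was 11.7, 9.92 and 10.4. The SHR livers had 13.2, 13.5 and 16.1, without overlap. That of mir-99b-5p in BN-Lx was 0.117, 0.0956 and 0.135. In SHR it was 0.176, 0.229 and 0.205, also without overlap, as for 8.52% of the 270 arms tested. The log2 difference was 0.45 ± 0.37 for mir-99a-5p and 0.85 ± 0.42 for mir-99b-5p (both adjusted p = 0.992), and the exact permutation p was 0.1 for both levels, the smallest that 3 against 3 allows (two-sided). In the 4 further livers alone the differences were 0.70 ± 0.18 and 1.08 ± 0.28 (both adjusted p = 0.302), and with a term that sets the further livers apart from the first livers, a fit chosen after seeing the data, 0.43 ± 0.25 and 0.82 ± 0.30 (adjusted p = 0.64 and 0.429). The levels of mir-100-5p, mir-125a-5p and mir-125b-5p overlapped between strains (exact permutation p = 0.8, 0.5 and 0.6). The labels give replicate numbers but no pairing of livers between the strains. Matched by that number, the SHR liver had the higher level in 3 of 3 pairs for mir-99a-5p, mir-99b-5p and mir-125a-5p. For mir-100-5p and mir-125b-5p it was higher in 2 of 3. The share of all 270 arms that go 1 way in 3 of 3 pairs is not given here, so no excess of the members can be read. With the replicate number as a block, mir-125a-5p was at 0.53 ± 0.29 (adjusted p = 0.595 by edgeR). None of the 8 tested member arms was at an unadjusted p under 0.05, and 0.0% of the 270 arms passed, with 6 at an unadjusted p under 0.05. The further livers had lower mir-125a-5p (2.78 to 5.77) than the first livers (9.02 and 11.4), and lower mir-125b-5p (5.53 to 9.04 against 10.4 and 14.04) and mir-100-5p (0.353 to 0.983 against 1.34 and 1.64), in both strains.

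Whether the strain difference in liver differed from that in each other tissue was tested in 5 contrasts, in which no member arm passed (10 tested) and 0.043% of all tests passed by edgeR. Outside liver, each tissue had 1 library per strain, so the spread in these contrasts came from the livers alone. That spread also mixed the first and further livers, whose levels differed for several members. Whether the other tissues vary as the livers do was not tested, so these tests cannot decide the question. Of the member values, the one with the smallest p was that of mir-99b-3p in liver minus heart (log2 value 4.84). That arm had 17 and 2 reads in the hearts. Among the 5' arms it was that of mir-99b-5p in liver minus brain (log2 value 2.47).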

How the data were processed

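For each of the 16 libraries the authors deposited estimated counts that were not normalized, a value for each start and end on a hairpin, in which reads fitting several hairpins had been divided evenly. The authors sequenced on SOLiD, mapped with SHRiMP against known and predicted hairpins (RGSC3.4 genome, miRBase) and retained only perfect matches. The six-tissue files hold reads of at least 17 nt and those of the further livers reads from 15 nt. Per the study's methods, testis and the SHR liver of the six-tissue set were amplified with more PCR cycles than the other libraries. The list of piRNA clusters and the description file were not used.

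Reads were summed per arm (a midpoint over 20 nt from the hairpin's most frequent one counts as the other arm) and rounded. The ocm was taken over all arms, not known loci alone. Filtering left 10 of the 11 member arms in the tissue fit, without mir-125b-1-3p, and 8 in the liver fit. edgeR 4.0.16 (quasi-likelihood, TMM, filterByExpr, two-sided) in R 4.3.3 was fitted over all arms, with tissue and strain as terms for the 12 libraries (456 arms), strain alone for the 6 livers (270 arms), and all 16 libraries for the liver contrasts. Alternatives included DESeq2 1.42.0. Python 3.11.15 and scipy 1.17.1 gave the exact tests and the Clopper-Pearson intervals. With few rats, p-values measure the spread between these samples. Simulated data recovered 27.0% of arms changed by a log2 fold of 1 in the brain contrast (424 arms) and 67.2% at 2, and 14.3% and 46.6% in the liver strain fit (246 arms).

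Livers share replicate numbers, and livers of the same number deviated together (correlations over 270 arms of 0.668, 0.57 and 0.3). In both strains, number 1 is the six-tissue liver and the other numbers are further livers. A difference between those sets alone can give such correlations, so they cannot show that the numbers pair single livers. The members, lists and rules were chosen with earlier results of these data known. Named were all arms of the 6 hairpins, the let-7 arms between them and the 3 most similar arms of other hairpins per 5' arm. Sequences and coordinates are RefSeq's (GRCr8), not the authors' build.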

Additional observations from a re-analysis of the deposited data

Results flagged for a closer look

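Of 16 member levels and ratios, 3 had a liver library far from the other 5, all of them 3' arms with few reads. The rate of about 1 in 20 that chance gives assumes normally spread values. It does not apply to counts near 0, so no excess can be read from these flags. The level of mir-99a-3p was 0.0715 in the BN-Lx liver 1 library (25 reads), against 0.024 in the next. The level of mir-125a-3p was 0.0215 in BN-Lx liver 2 (18 reads), against 0.0122 in the next. The level of mir-125b-1-3p was 0.00266 in SHR liver 1, which is 1 read, and 0 in the other livers.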

How the results depend on the processing

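Calls of members against the mean of the other tissues depended on the scale and on single libraries. By TMM, 2 arms were called in brain, 3 in liver, 3 in spleen, 4 in heart, 0 in testis and 1 in kidney. On the ocm scale, brain had 4, liver 5 and testis 4, and by total reads 6, 8 and 5. Over all 456 arms, the ocm called 194 higher and 82 lower in brain, 46 and 67 in liver and 86 and 26 in testis. By total reads these were 213 and 70, 34 and 101, and 99 and 20. RLE factors gave 2 in testis (65 higher and 49 lower over all arms). DESeq2 gave 5 in liver (69 and 61 over all arms) and 2 in testis (73 and 51). The counts over all arms thus moved with the scale too. For the fits that follow they are not given. With no strain term (no replicate block over the tissues), liver had 5, testis 1 and kidney 2. Without testis, kidney had 2. With the 4 further livers added, brain had 1, liver 5, spleen 0 and kidney 0. Leaving out each of the 12 libraries in turn gave 0 to 2 in brain, 0 to 4 in liver, 0 to 3 in spleen, 2 to 5 in heart, 0 to 1 in testis and 0 to 2 in kidney. Directions turned in testis for mir-99a-5p (0.72 by the ocm and 0.90 by total reads) and mir-125b-5p (0.76 by total reads). The 5-fold rule took 0 members with both strains and 2 with BN-Lx or SHR alone. Of 20 ratios and shares, 4 passed, 0 without testis and 8 with the mean of 3 livers. The replicate block in liver called 0 members, as did the fit without it and each liver left out (0 to 0), and changed no other call. The cause of these changes was not tested. Depth limits testis most, where 3 reads, the limit that a count of 0 allows, are a level of 0.101 in BN-Lx and 0.0891 in SHR.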
